A study of Mus musculus with 22 samples.

Results

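The receptors for glutamate, GABA and glycine carry most of the fast signalling of the spinal cord, and 40 of their genes were examined for contact with the RNA binding protein hnRNP A1. They comprise 4 AMPA, 7 NMDA and 5 kainate subunits, the delta receptor gene Grid1, 7 metabotropic glutamate receptors, 10 GABA-A subunits, both GABA-B subunits and 4 glycine receptor subunits. Members were taken by receptor class, and a footprint was assigned to a gene when it overlapped the annotated span by at least 1 nt. Of the 136207 footprints of 10 mice, 879 lay in these genes, and 30 of the 40 genes held at least 1. This is 75%, against 45.6% of all protein-coding genes.

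The study used CLIPseq, in which UV light links proteins to RNA in the tissue, an antibody recovers the chosen protein and the attached RNA is sequenced. Female wild-type C57Bl/6 mice with experimental autoimmune encephalomyelitis (EAE), a model of multiple sclerosis, were compared with age-matched naïve mice. EAE was induced with a myelin oligodendrocyte glycoprotein peptide in complete Freund's adjuvant and with pertussis toxin, at 12 weeks of age by the protocol in the labels and at 8 weeks by the design text, and cords were taken 15 days after onset. The 3 naïve mice are numbered 1, 2 and 3. The 3 mild EAE mice are numbers 3, 4 and 7, with clinical scores of 1.5, 1.5 and 1.0. The 4 severe EAE mice are numbers 1, 2, 5 and 6, with scores of 2.5, 3.0, 2.5 and 3.0. No group given adjuvant and toxin without the peptide was used here, so the disease and those agents cannot be told apart.

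Each mouse gave 1 immunoprecipitation from 1 whole spinal cord. The deposited lists give the positions of footprints that remained after sites of the matched input and of pooled control antibody were removed, with no read count, score or strand. A gene without a footprint is one where none was retained. List lengths were 17119, 17454 and 17494 footprints in naïve mice and 14534, 9751 and 24433 in mild EAE mice. In severe EAE the lists of mice 1, 2 and 6 held 2670, 209 and 673 footprints and that of mouse 5 held 31870, so the severe group consisted in practice of a single long list. The mapped reads that the study gives for the mice with short lists are not correspondingly low. By another method in the paper, which calls peaks from aligned reads, these mice also had fewer sites than every other mouse. The paper describes an outlier in the severe group, with binding similar to that of naïve and mild EAE mice. It had been in remission shortly before the experiment ended. That outlier is mouse 5 here. Whether the lists of the other severe EAE mice are complete is not known here. A count of 0 in these mice therefore says only that no footprint is listed. Main results are therefore given for each mouse. Counts given for a whole group pool its mice, and 190 of the 197 severe EAE footprints in receptor genes are those of mouse 5.

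HnRNP A1 is a mainly nuclear protein that shuttles to the cytoplasm, prefers UAG in RNA and often represses the use of exons when it binds in or near them. Glutamate opens the cation channels of the AMPA, NMDA and kainate classes and activates G-protein coupled metabotropic receptors, whereas GABA and glycine open chloride channels and GABA also activates the GABA-B receptor. Many receptor genes of these families span very long introns, and several are known for alternative exons, among them the flip and flop exons of the AMPA subunits and the cassette exons of Grin1, the obligatory NMDA subunit.

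The sequences below are places where the footprints of several mice met, and they show the 2 kinds of site found in these genes. The first set was chosen for exonic sites shared by many mice, in Grin1 and in Gabbr1, the agonist-binding GABA-B subunit. All are given 5′ to 3′ on the strand of the gene, from GRCm38, with every TAG (UAG in the RNA) in capitals. The first is exon 2 of the 21 exons of transcript Grin1-204, a coding exon of 135 nt. The second is the part shared by naïve mice of exon 3, which is 177 nt long, and the third is the part of exon 22 of Gabbr1-201 that naïve mice 1 and 3 shared.
Grin1 exon 2, chr2:25316755-25316889, minus strand: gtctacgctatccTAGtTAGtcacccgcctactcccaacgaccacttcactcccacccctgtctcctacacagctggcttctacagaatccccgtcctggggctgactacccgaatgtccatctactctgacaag
Grin1 exon 3, chr2:25313515-25313604, minus strand: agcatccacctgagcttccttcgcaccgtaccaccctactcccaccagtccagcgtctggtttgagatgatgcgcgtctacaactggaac
Gabbr1 exon 22, chr17:37072173-37072287, plus strand: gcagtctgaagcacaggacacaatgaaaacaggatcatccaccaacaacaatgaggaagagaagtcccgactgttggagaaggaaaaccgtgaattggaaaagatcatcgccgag

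Both Grin1 stretches were touched in 7 mice, comprising naïve mice 1, 2 and 3, mild EAE mice 3 and 4 and severe EAE mice 1 and 5. The Gabbr1 stretch was touched in 6, comprising naïve mice 1 and 3, all 3 mild EAE mice and severe EAE mouse 5. Only Grin1 exon 2 holds TAG, at 2 places, and the other 2 stretches hold none.

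The second set shows the intronic sites, chosen as stretches shared by naïve mice with the most TAG in their gene, together with the Gabbr2 intron stretch that was shared by all 3 naïve mice. Glra1 encodes the ligand-binding glycine receptor subunit of the adult cord, Grm7 and Grm8 encode presynaptic metabotropic receptors, Gria1 and Gria4 encode AMPA subunits, Grin3a encodes an NMDA subunit and Gabbr2 encodes the GABA-B subunit that couples to G proteins.
Glra1 intron, chr11:55525722-55525923, minus strand: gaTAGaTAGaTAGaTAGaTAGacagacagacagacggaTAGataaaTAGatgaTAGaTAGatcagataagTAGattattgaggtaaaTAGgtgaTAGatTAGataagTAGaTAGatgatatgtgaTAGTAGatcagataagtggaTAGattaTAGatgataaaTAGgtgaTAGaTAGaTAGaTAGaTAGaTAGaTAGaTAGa
Grm7 intron, chr6:110970583-110970668, plus strand: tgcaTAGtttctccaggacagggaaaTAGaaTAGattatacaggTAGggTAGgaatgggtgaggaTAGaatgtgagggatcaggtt
Grm8 intron, chr6:27943412-27943524, minus strand: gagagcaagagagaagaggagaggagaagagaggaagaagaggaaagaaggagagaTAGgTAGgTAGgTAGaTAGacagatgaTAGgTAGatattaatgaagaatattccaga
Gria4 intron, first, chr9:4437208-4437307, minus strand: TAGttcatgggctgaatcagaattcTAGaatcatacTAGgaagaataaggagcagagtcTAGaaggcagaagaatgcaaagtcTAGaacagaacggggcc
Gria4 intron, second, chr9:4621895-4622027, minus strand: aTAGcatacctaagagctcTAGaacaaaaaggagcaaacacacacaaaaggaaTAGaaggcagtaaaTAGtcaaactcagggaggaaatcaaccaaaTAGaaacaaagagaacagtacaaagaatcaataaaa
Grin3a intron, chr4:49690460-49690578, minus strand: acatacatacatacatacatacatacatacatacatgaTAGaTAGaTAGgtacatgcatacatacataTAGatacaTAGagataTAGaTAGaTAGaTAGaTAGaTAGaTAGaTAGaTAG
Gria1 intron, chr11:57315149-57315250, plus strand: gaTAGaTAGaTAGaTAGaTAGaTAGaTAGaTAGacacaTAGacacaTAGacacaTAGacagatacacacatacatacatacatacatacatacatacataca
Gabbr2 intron, chr4:46940908-46941074, minus strand: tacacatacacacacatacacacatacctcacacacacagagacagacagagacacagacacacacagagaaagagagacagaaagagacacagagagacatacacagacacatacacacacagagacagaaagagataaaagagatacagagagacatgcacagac

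The Glra1 stretch of 202 nt holds 28 TAG, is repeat-masked over 66.3% of its length and was touched in 6 mice, naïve mice 1 and 3, all mild EAE mice and severe EAE mouse 5. It lies 1331 nt from the nearest exon and inside the span, outside the exons, of the antisense gene Gm12236. The Grm7 stretch holds 6 TAG in 86 nt, lies 56039 nt from an exon and was touched in 5 mice, naïve mice 1 and 3, mild EAE mice 4 and 7 and severe EAE mouse 5. The Grm8 stretch, with 7 TAG in 113 nt, was touched in naïve mice 1 and 3 and in mild EAE mouse 7. The 2 stretches of Gria4 tied at 5 TAG. The first, of 100 nt, has no repeat-masked base and was touched in naïve mice 1 and 3 and in severe EAE mouse 1. The second, of 133 nt, and the stretches of Grin3a (14 TAG) and Gria1 (11 TAG) were touched in 2 naïve mice each and in no EAE mouse, and these 3 are entirely repeat-masked. The Gabbr2 stretch is also entirely repeat-masked and holds no TAG.

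The number of receptor footprints was 178, 146 and 126 in naïve mice 1, 2 and 3 (150 ± 26.2, SD, n = 3). For mild EAE the counts of mice 3, 4 and 7 were 50, 57 and 125 (77.3 ± 41.4, n = 3). Severe EAE mice 1, 2, 5 and 6 had 7, 0, 190 and 0 (49.2 ± 93.9, n = 4). All mild EAE mice lay below all naïve mice, mouse 7 by a single footprint, while severe EAE mouse 5 had the most of any mouse and severe EAE mice 2 and 6 had none.

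Because the lists differed in length, the count was also taken as a share of the footprints lying in any annotated gene. The share was 1.15%, 0.927% and 0.786% in the naïve mice (0.955% ± 0.185), 0.366%, 0.646% and 0.551% in the mild EAE mice (0.521% ± 0.142) and 0.307%, 0%, 0.639% and 0% in severe EAE mice (0.236% ± 0.305). Each of the 7 EAE mice, severe EAE mouse 5 included, lay below each of the 3 naïve mice. Leaving out the 3 mice with fewer than 5000 footprints, the difference between EAE and naïve means was -0.405 percentage points, against -0.597 with all 10 mice. These values are a description without a test, since the genes were chosen with results known.

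**Figure D1:**
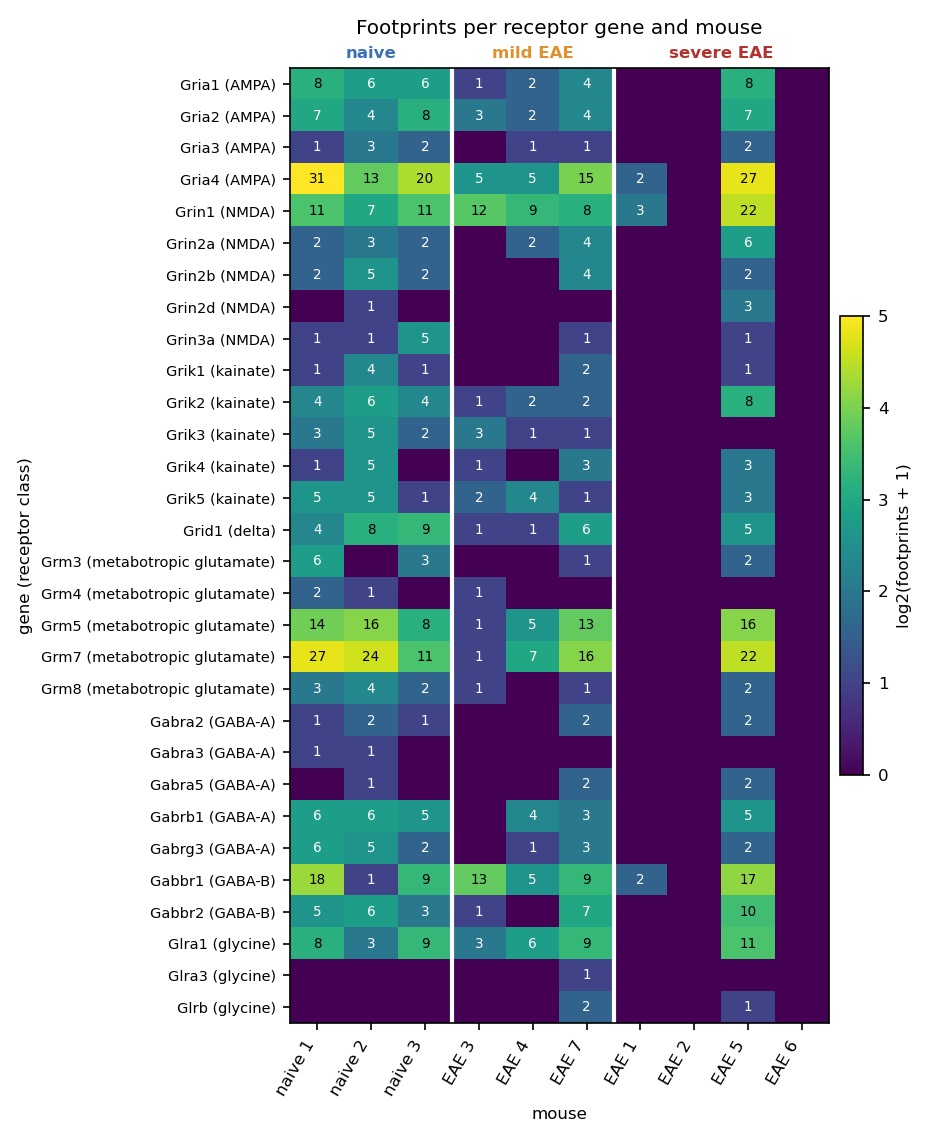
Footprints per receptor gene (rows, by receptor class) in each of the 10 mice (columns, by group), with the count as colour and number. The columns of naïve mice hold 178, 146 and 126 footprints, those of mild EAE mice 50, 57 and 125, and those of severe EAE mice 2 and 6 none.

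The receptor genes were footprinted more often than protein-coding genes as a whole. In the naïve cords, 22 of the 40 genes (55%) held a footprint in all 3 mice, against 9.35% of 21938 protein-coding genes. Length accompanied this difference. Of the 19 receptor genes with a span of 200 kb or more, 78.9% were footprinted in all naïve mice, against 51.7% of the 998 protein-coding genes of that length. Of the 9 receptor genes under 50 kb, 22.2% were, against 4.77%. For a footprint in any mouse, the values at matched length were close. They were 94.7% against 92.4% at 200 kb or more and 33.3% against 36.2% under 50 kb. In all 3 mild EAE mice, 36.8% of the long receptor genes were footprinted, against 31% of protein-coding genes of that length. The 10 genes without a footprint in any mouse were Grin2c, Grin3b, Grm2, Grm6, Gabra4, Gabra6, Gabrb2, Gabrg1, Gabrd and Glra2. Among them are Gabra6 and Grin2c, best known from the cerebellum, and Grm6, best known from the retina. These genes are also short, at 14.6, 18.1 and 15.5 kb, and only 3 of the 9 receptor genes under 50 kb held a footprint. Gabrb2 and Glra2, also among the 10, span 209 and 198 kb. Why the 10 genes held no footprint was not tested. The number of receptor genes with a footprint was 26, 27 and 23 in the naïve mice, 16, 16 and 27 in the mild EAE mice and 3, 0, 26 and 0 in severe EAE mice, so these counts overlapped between the groups.

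The footprints took 2 forms. Exons make up 2.94% of the 10.5 Mb that the 40 genes span. They held 343 of the 879 footprints, or 111 per 100 kb of exon against 5.27 per 100 kb of intron, where a footprint counted as intronic if its middle base fell outside all annotated exons of the receptor gene. In genes under 50 kb 6.21% of 161 footprints were intronic, in genes of 50 to 200 kb 28.9% of 135, and in genes of 200 kb or more 83.5% of 583. Most exonic footprints ended exactly at an exon edge on at least 1 side, namely 66.7% in naïve, 79% in mild EAE and 78.2% in severe EAE mice, and few crossed an edge (4.07%, 1.68% and 5.94%). The footprints come from assembled reads placed on the genome by spliced alignment. The part of that step in these edges and in the exonic density was not tested. Intronic footprints lay far from exons, with a median distance of 22877 nt in naïve, 21634 nt in mild EAE and 22936 nt in severe EAE mice, and 2.14%, 1.77% and 2.08% of them lay within 300 nt of an exon.

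**Figure D2:**
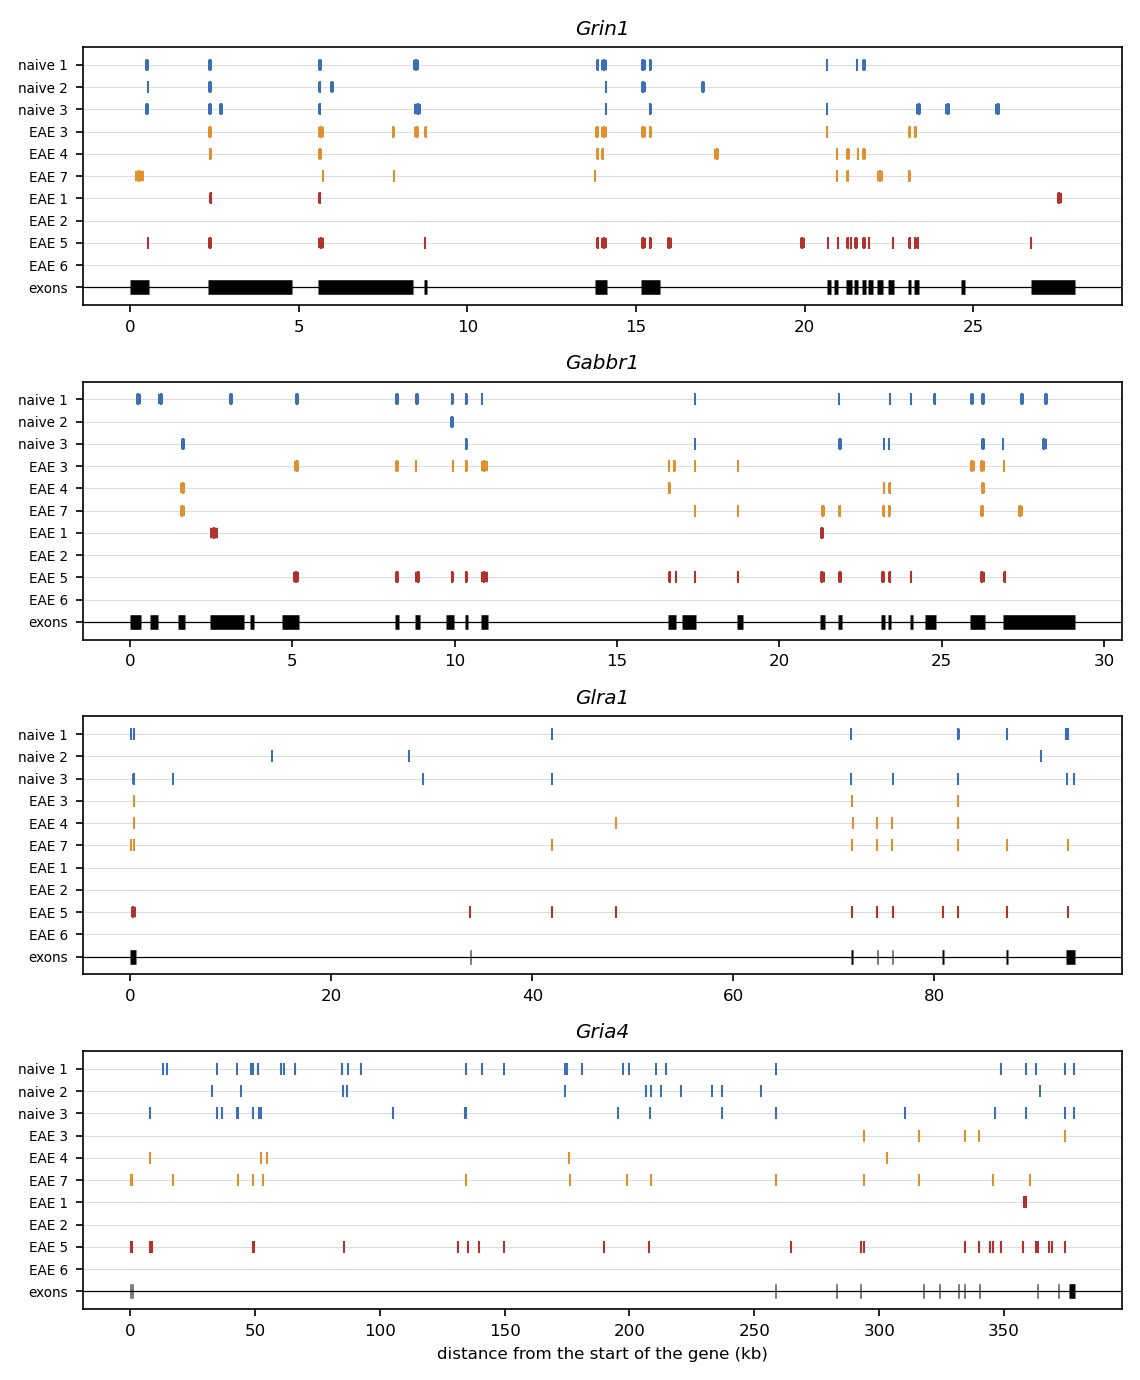
Maps of Grin1, Gabbr1, Glra1 and Gria4, with the distance from the start of the gene in kb on the horizontal axis. Annotated exons are on the bottom row and the footprints of each mouse on the rows above, coloured by group. Footprints follow the exons in Grin1 and Gabbr1, where 10.8% and 1.35% were intronic, and are scattered through the introns of Gria4, where 82.2% were.

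Intronic receptor footprints were fewer in mild EAE than in naïve mice, whereas the numbers of exonic ones overlapped. Naïve mice had 122, 125 and 80 intronic footprints in these genes, mild EAE mice 14, 30 and 69, and severe EAE mice 2, 0, 94 and 0. Exonic footprints numbered 56, 21 and 46 in the naïve mice, 36, 27 and 56 in the mild EAE mice and 5, 0, 96 and 0 in severe EAE mice. The mild EAE mice lay below the naïve mice for intronic footprints and within their range for exonic ones.

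As a percentage of all genic footprints, intronic receptor footprints made up 0.79%, 0.794% and 0.499% in the naïve mice, 0.102%, 0.34% and 0.304% in the mild EAE mice and 0.0876%, 0%, 0.316% and 0% in severe EAE mice. Again no EAE mouse reached the lowest naïve mouse. Exonic receptor footprints made up 0.363%, 0.133% and 0.287% in the naïve mice, 0.263%, 0.306% and 0.247% in the mild EAE mice and 0.219%, 0%, 0.323% and 0% in severe EAE mice. The means of naïve and mild EAE mice differed by less than the spread between mice (0.261% ± 0.117 and 0.272% ± 0.0305, n = 3 each).

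**Figure D3:**
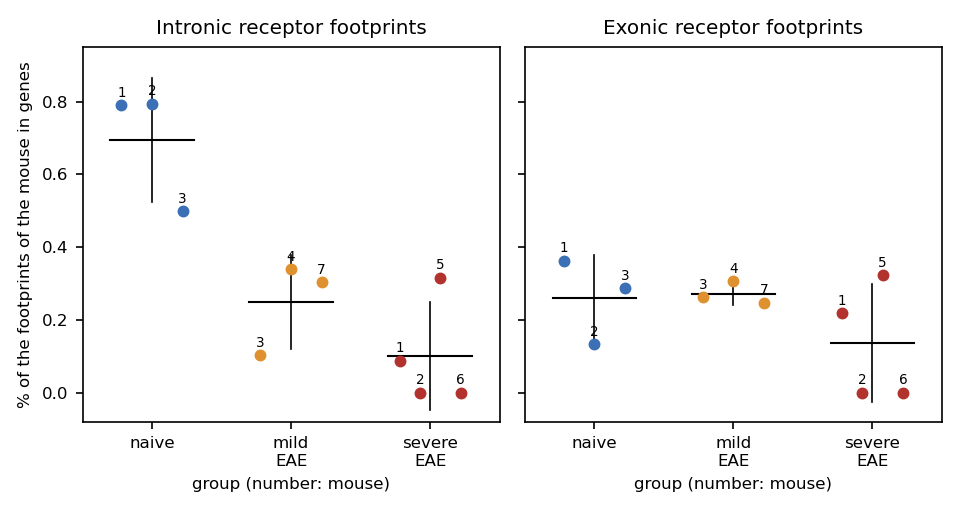
Intronic and exonic receptor footprints as a percentage of the footprints in genes, 1 point per mouse labelled with the mouse number, with the group mean (line) and SD (bar). Naïve mice sit between 0.499% and 0.794% for intronic footprints and EAE mice between 0% and 0.34%, whereas the exonic ranges overlap.

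The intronic share of the receptor footprints was 68.5%, 85.6% and 63.5% in the naïve mice (72.5% ± 11.6), and 28%, 52.6% and 55.2% in the mild EAE mice (45.3% ± 15). In severe EAE it was 49.5% of 190 footprints in mouse 5 and 28.6% of only 7 in mouse 1, and the other two severe mice have no value. The same shift was present across the transcriptome. Over all genic footprints the intronic share was 35.9% ± 7.32 in naïve, 17.4% ± 6.3 in mild EAE (n = 3 each) and 23.7% ± 5.85 in severe EAE mice (n = 4). Protein-coding genes of 200 kb or more outside the receptor list went from 68.6% ± 9.39 in naïve to 46.9% ± 9.46 in mild EAE and 58.3% ± 15.5 in severe EAE, and their part of all genic footprints from 29.9% ± 3.5 to 17.7% ± 5.36 and 13.8% ± 6.5. Receptor genes of that length moved less and overlapped, with an intronic share of 89.6%, 94.2% and 84.1% in the naïve mice (89.3% ± 5.02) and 68.8%, 87.1% and 75.6% in the mild EAE mice (77.1% ± 9.27), mild EAE mouse 4 lying above naïve mouse 3. It was 72.7% of 121 footprints in severe EAE mouse 5 and rested on only 2 footprints in severe EAE mouse 1.

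Set against those long genes, the receptor genes of 200 kb or more had 2.46, 2.47 and 1.96 footprints per 100 in the other long genes in naïve mice. The mild EAE mice had 1.01, 1.62 and 1.92, and the value was 0.643, 0, 1.87 and 0 in severe EAE mice 1, 2, 5 and 6. All EAE mice were below all naïve mice, though mild EAE mouse 7 and severe EAE mouse 5 came close to naïve mouse 3. The mean was 2.3 ± 0.291 in naïve mice and 1.52 ± 0.462 in mild EAE mice.

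**Figure D4:**
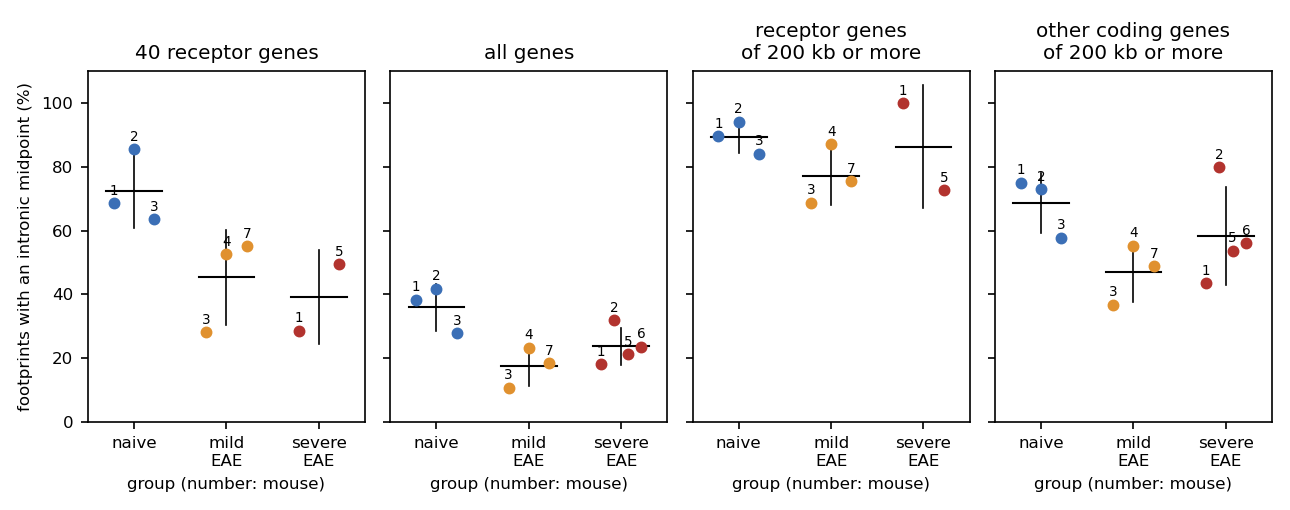
Percentage of footprints with an intronic midpoint in each mouse, for the 40 receptor genes, all genes, receptor genes of 200 kb or more and other protein-coding genes of that length (panels from left to right), 1 point per mouse, with group means (lines) and SD (bars). The 3 naïve mice lie between 63.5% and 85.6% for the receptor genes and the mild EAE mice between 28% and 55.2%, and the other genes moved the same way.

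In these bulk samples, fewer cells of a type and less RNA per cell cannot be told apart, nor can either be separated from hnRNP A1 binding without the inputs, which were not analysed here. Some cell type markers moved with the disease groups. Markers of microglia and leukocytes (7 of 8 genes footprinted, Aif1 at 0 in every mouse) covered 0 nt in every naïve mouse, 2704, 1038 and 2667 nt in mild EAE mice and 258, 0, 4142 and 149 nt in severe EAE mice. Neuronal markers (8 of 8 genes footprinted) covered 4862, 3195 and 4993 nt in naïve, 3359, 2062 and 3128 nt in mild EAE and 149, 0, 8526 and 143 nt in severe EAE mice. Oligodendrocyte markers (6 of 6 footprinted) covered 6472, 1970 and 6826 nt in naïve and 3172, 2479 and 6635 nt in mild EAE mice, and astrocyte markers (5 of 5) 714, 524 and 1474 nt and 875, 667 and 2628 nt. The part of any of these cell types in the receptor results was not tested. Of 10 Hox genes that mark spinal cord position, 5 were footprinted.

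Per gene, the comparison used covered nucleotides, the number of bases of a gene that lie under a footprint in a mouse. Of all annotated genes, 6731 were footprinted in at least 3 of the 10 mice and entered the tests, including 26 of the 40 receptor genes. A gene can pass this filter through the naïve mice alone, so counts over the 26 are given as a description. Mean coverage was compared between groups by a two-sided exact permutation test with Benjamini-Hochberg adjustment over the 6731 genes. The 3 comparisons share the same naïve mice. The exact test cannot give a p below 0.00833 for 7 EAE against 3 naïve mice, 0.0286 for 4 severe EAE against 3 naïve mice or 0.1 for 3 against 3.

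No gene of any kind passed an adjusted p of 0.05 in any comparison, and the lowest adjusted p was 0.449 for all EAE mice, 0.92 for mild and 0.805 for severe EAE. Without adjustment, 416, 0 and 232 of the 6731 genes fell under 0.05 in the exact permutation tests of all, mild and severe EAE against naïve mice, among them 7, 0 and 3 receptor genes. The median difference over the 26 receptor genes was -268 nt for all EAE mice against -26.3 nt over all genes tested, -218 against 4.67 nt for mild EAE and -291 against -52.4 nt for severe EAE. Of the 26, 25, 22 and 26 had a mean below naïve in the same order, against 59.7%, 47.6% and 69.4% of all genes. Other long genes lay on the same side. Among 736 other protein-coding genes of 200 kb or more, 87.6%, 80% and 90.1% had a mean below naïve, with medians of -191, -163 and -222 nt.

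A gene was also counted when its groups did not overlap, that is when every mouse of one group lay below every mouse of the other. In mild EAE 5 of the 26 receptor genes were lower in this sense (Gria1, Gria2, Gria3, Grik2 and Grm8, 19.2%), against 5.26% of all genes tested and 20.1% of the other long genes, and none was higher, against 5.24% of all genes. In either direction together 10.5% of all genes tested did not overlap. The receptor count was 10 without naïve mouse 3 and 15 without mild EAE mouse 7, and the percentage of all genes rose with it, to 17.5% and 20.6%. In severe EAE 3 were lower (Gabrg3, Grik3 and Grm8), against 4.72% of all genes and 9.92% of the other long genes, and 0 higher against 0.0149%. That count was 8 without naïve mouse 1, 5 without naïve mouse 3 and 21 without severe EAE mouse 5, while the percentage of all genes in either direction went from 4.74% to 9.64%, 8.68% and 30.8%. Over all 7 EAE mice only Grm8 was lower, against 1.99% of all genes and 5.71% of the other long genes, and none was higher, against 0.0149%. Leaving out naïve mouse 1 or 3 gave 3 genes, naïve mouse 2 or mild EAE mouse 7 gave 2, and severe EAE mouse 5 gave 5. Over all genes the percentage rose from 2.01% to 4.5% and 4% without naïve mice 1 and 3, 4.34% without naïve mouse 2, 2.94% without mild EAE mouse 7 and 5.2% without severe EAE mouse 5.

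The count was also taken on intronic and on exonic nucleotides alone. This split was added after the values were seen. On intronic nucleotides, 9 of the 26 receptor genes were lower in every mild EAE mouse than in every naïve mouse, namely Gria1, Gria2, Gria3, Gria4, Grik2, Grik5, Grin3a, Grm8 and Gabbr2. This is 34.6%, against 4.99% of all genes tested and 21.9% of the other long genes, and none was higher, against 1.56% of all genes. On exonic nucleotides none of the 26 was lower, against 1.44% of all genes and 1.49% of the other long genes. A count of 0 is near those percentages. None was higher on exons, against 4.83% and 1.09%. The median difference was -203 nt on introns, with 24 of 26 genes below 0, and -3.67 nt on exons, with 13 of 26. With each mouse left out in turn the intronic count was 9 to 14, the highest without mild EAE mouse 7, and the exonic count 0 to 2. The percentage lower on introns was then 5.72% to 9.14% of all genes and 24.3% to 39.9% of the other long genes, both also highest without mild EAE mouse 7. On exons it was 1.66% to 5.24% of all genes and 1.63% to 6.25% of the other long genes. Without mild EAE mouse 3 or mild EAE mouse 4, 1 receptor gene was higher on introns.

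**Figure D5:**
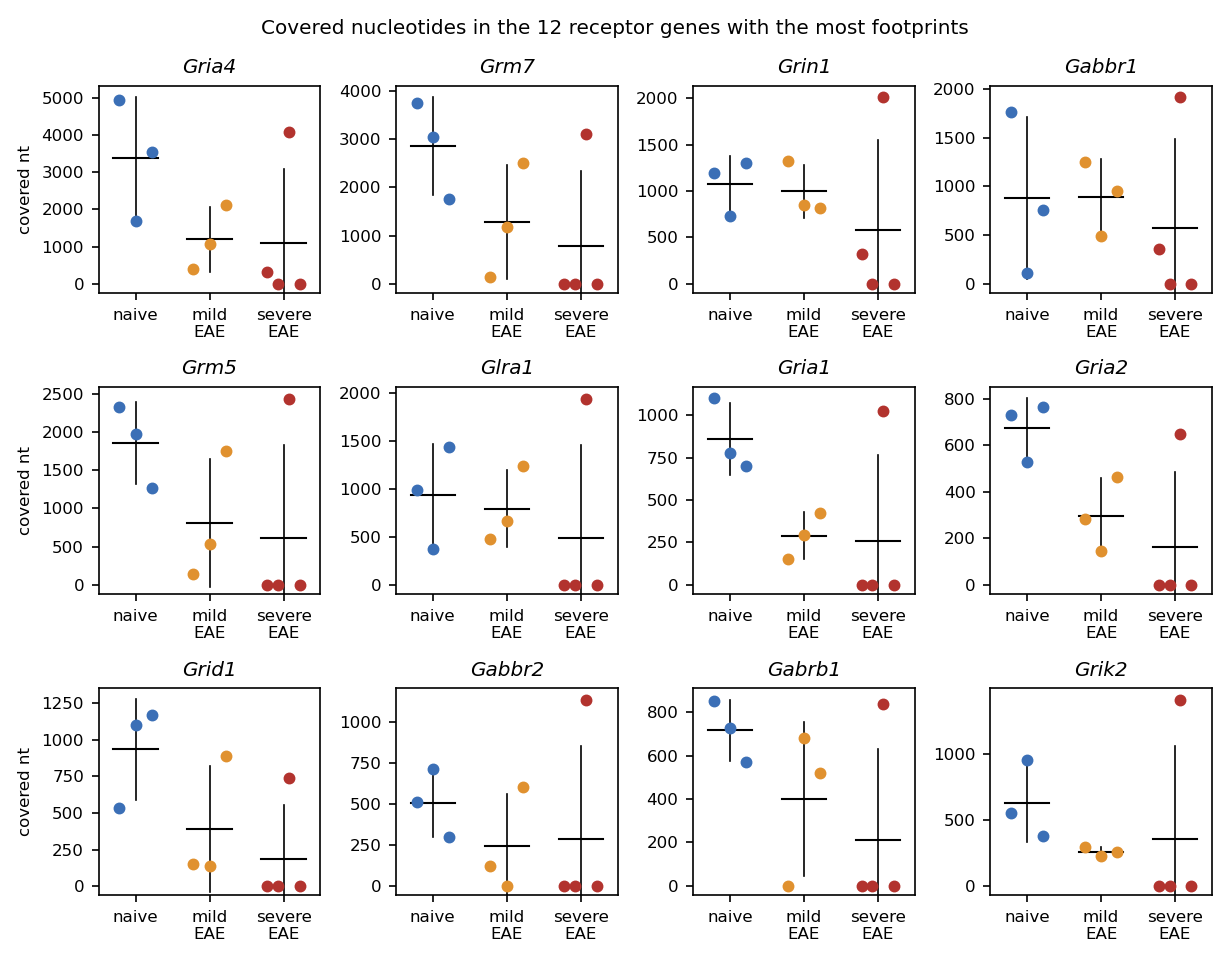
Covered nucleotides in each mouse in the 12 receptor genes with the most footprints, 1 point per mouse by group, with group means (lines) and SD (bars). Gria1 covered 702 to 1100 nt in naïve mice and 149 to 426 nt in mild EAE mice, Grin1 overlapped between these groups, and 1 severe EAE mouse (mouse 5) stands above the others in all 12 panels.

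AMPA receptors mediate fast excitation, and all 4 of their genes were footprinted. The class held 109 footprints in naïve, 43 in mild EAE and 46 in severe EAE mice, of which 78%, 44.2% and 52.2% were intronic. Those in coding sequence numbered 21, 21 and 20. By mouse the coding footprints numbered 9, 1 and 11 in naïve, 8, 4 and 9 in mild EAE and 0, 0, 20 and 0 in severe EAE mice. Gria4, which encodes a subunit of rapid channels, held more footprints than any other receptor gene, with 118 over the 10 mice. Intronic sites made up 60 of its 64 naïve footprints, 16 of 25 from mild EAE and 21 of 29 from severe EAE mice, and coding footprints numbered 2, 7 and 6. They fell in 7 of its 18 introns, and 40 of 97 lay in the longest intron of 129 kb, which makes up 34.6% of its intronic sequence.

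Gria4 covered 4938, 1691 and 3531 nt in naïve mice, 390, 1066 and 2115 nt in mild EAE mice and 310, 0, 4077 and 0 nt in severe EAE mice. Mild EAE mouse 7 lay above naïve mouse 2 on this count, and the groups separated on intronic nucleotides, at 4673, 1691 and 3239 in naïve and 122, 1066 and 1629 in mild EAE mice. Severe EAE mouse 5, at 3350 intronic nt, fell within the naïve range.

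Gria1 covered 1100, 780 and 702 nt in naïve mice, 149, 292 and 426 nt in mild EAE mice and 0, 0, 1025 and 0 nt in severe EAE mice. Gria2, whose subunit sets the calcium permeability of the channel, covered 731, 529 and 763 nt in naïve, 282, 148 and 465 nt in mild EAE and 0, 0, 646 and 0 nt in severe EAE mice. In both genes the naïve and mild EAE mice did not overlap and severe EAE mouse 5 fell within the naïve range. Intronic footprints of Gria2 numbered 7 in naïve, 1 in mild EAE and 0 in severe EAE mice, and its coding footprints 11, 8 and 7. Gria3 covered 188, 387 and 343 nt in naïve mice and 0, 144 and 149 nt in mild EAE mice, with 192 nt in severe EAE mouse 5, just above naïve mouse 1.

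NMDA receptors are calcium-permeable channels that need both glutamate and a co-agonist, and each contains the Grin1 subunit. Grin1 spans only 28 kb, and its coverage overlapped between naïve and mild EAE mice. It covered 1192, 732 and 1298 nt in naïve, 1330, 852 and 819 nt in mild EAE and 321, 0, 2015 and 0 nt in severe EAE mice. Coding sites made up 22 of its 29 naïve footprints, 26 of 29 from mild EAE and 22 of 25 from severe EAE mice. The naïve and mild EAE means were 1074 ± 301 and 1000 ± 286 nt, closer than the spread between mice. Of its 83 footprints, 27 also overlapped exons of the antisense gene Grin1os, and since the lists carry no strand these cannot be assigned to either gene.

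A region made by merging overlapping footprints over all mice was touched in 8 mice at exon 3 of Grin1 (chr2:25313428-25313604). That exon, exon 2 shown above and a region at chr2:25305038-25305212, which is exon 7 of Grin1-204 and was touched in 6 mice, were the Grin1 sites seen most widely. Among the other NMDA genes, Grin2a (19 footprints, 18 intronic, 15 of them in a 194-kb intron) covered 278, 363 and 552 nt in naïve mice and 0, 976 and 688 nt in mild EAE mice, which extended beyond the naïve range on both sides. Grin3a held 7 footprints in naïve mice and 1 each in mild and severe EAE. Its intronic coverage was 128, 144 and 326 nt in naïve mice and 0 in all 7 EAE mice.

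Kainate receptors modulate transmitter release and postsynaptic excitation. Grik2 lay entirely in the intronic form, with 27 of 27 footprints, 15 of them in an intron of 205 kb. It covered 550, 954 and 374 nt in naïve and 295, 223 and 258 nt in mild EAE mice, so these groups did not overlap, while severe EAE mouse 5 covered 1409 nt, more than any naïve mouse. Grik3, another kainate subunit, covered 451, 708 and 282 nt in naïve, 710, 374 and 607 nt in mild EAE and 0 nt in all severe EAE mice, but 7 of its 15 footprints lay on a processed ferritin pseudogene (Ftl2-ps, with Mir692-2) inside its 133-kb intron. Those made up 4 of 5 footprints in mild EAE and 3 of 10 in naïve mice, and contact with the pseudogene and with the Grik3 intron cannot be told apart. Grik5 covered 118, 238 and 124 intronic nt in naïve mice and 0, 1 and 0 in mild EAE mice, whereas its coding footprints numbered 7 in each of the 2 groups.

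The delta receptor gene Grid1, which encodes a synaptic organiser, spans 763 kb and held 34 footprints, 32 of them intronic. It covered 537, 1098 and 1168 nt in naïve, 152, 141 and 889 nt in mild EAE and 0, 0, 742 and 0 nt in severe EAE mice, and mild EAE mouse 7 and severe EAE mouse 5 lay inside the naïve range.

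The metabotropic glutamate receptors were footprinted almost only in introns, with an intronic share of 95.9% among 121 naïve, 91.5% among 47 mild EAE and 90.5% among 42 severe EAE footprints. Grm7, a presynaptic receptor with low affinity for glutamate, spans 922 kb and held 103 intronic footprints among 108, in 9 of its 13 introns. It covered 3751, 3048 and 1762 nt in naïve, 153, 1180 and 2495 nt in mild EAE and 0, 0, 3109 and 0 nt in severe EAE mice. Grm5, a postsynaptic receptor coupled to phospholipase C, covered 2328, 1975 and 1270 nt in naïve, 136, 533 and 1753 nt in mild EAE and 0, 0, 2436 and 0 nt in severe EAE mice, and 37 of its 66 intronic footprints lay in an intron of 201 kb. In both genes mild EAE mice 3 and 4 lay below all naïve mice and mild EAE mouse 7 lay among them.

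Grm8, a presynaptic receptor of the same subgroup as Grm7, was the only one of the 26 tested whose coverage was lower in each of the 7 EAE mice than in each naïve mouse. It covered 271, 561 and 335 nt in naïve mice, 129, 0 and 149 nt in mild EAE mice and 0, 0, 118 and 0 nt in severe EAE mice, all of it intronic. The mean difference was -332 nt for all EAE mice, with an exact permutation p of 0.00833, the smallest the design allows, and a Benjamini-Hochberg adjusted p of 0.449. It rests on 9 footprints in naïve mice and 4 in EAE mice, and when footprints were counted in place of nucleotides 0 receptor genes separated over all EAE mice. Grm3 held 9 footprints in naïve, 1 in mild EAE and 2 in severe EAE mice, but none in naïve mouse 2.

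GABA-A receptors are the chloride channels of fast GABA inhibition, and 5 of their 10 genes were footprinted. The class held 37 footprints in naïve, 15 in mild EAE and 11 in severe EAE mice, with none in mild EAE mouse 3. Gabrb1 covered 852, 727 and 570 nt in naïve, 0, 680 and 518 nt in mild EAE and 0, 0, 838 and 0 nt in severe EAE mice, with 3 of 29 footprints on exons of the overlapping gene Gm15616. Gabrg3 covered 956, 557 and 325 nt in naïve, 0, 201 and 456 nt in mild EAE and 0, 0, 303 and 0 nt in severe EAE mice, all of it intronic. Gabra2 held 4, 2 and 2 footprints, and Gabra3 and Gabra5 held 5 or fewer over all mice.

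The GABA-B genes showed the exonic form. The 2 genes together held 42 footprints in naïve, 35 in mild EAE and 29 in severe EAE mice, with 30, 32 and 26 in coding sequence. By mouse the coding footprints numbered 16, 4 and 10 in naïve, 13, 5 and 14 in mild EAE and 2, 0, 24 and 0 in severe EAE mice. Gabbr1 held 74 footprints, 1 of them intronic, and 60 ended at an exon edge. It covered 1764, 114 and 754 nt in naïve, 1245, 485 and 954 nt in mild EAE and 360, 0, 1917 and 0 nt in severe EAE mice, so the naïve mice spanned a wider range than the mild EAE mice. Gabbr2 combined both forms. Its 6 intronic footprints in naïve mice compared with 1 in mild EAE and 2 in severe EAE mice, while its coding footprints numbered 8, 6 and 7.

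Glycine receptors carry much of the fast inhibition of the cord. Almost all footprints of the class lay in Glra1, with 20 in naïve, 18 in mild EAE and 11 in severe EAE mice, of which 9, 10 and 8 were coding and 7, 4 and 2 intronic. Glra1 covered 993, 370 and 1435 nt in naïve, 477, 663 and 1241 nt in mild EAE and 0, 0, 1941 and 0 nt in severe EAE mice, and the naïve and mild EAE means (933 ± 535 and 794 ± 398 nt) differed by less than the spread between mice. Sites touched in 6 mice were the intronic TAG repeat shown above, a coding exon at chr11:55536281-55536504 and the first exon with the 5′ UTR. Glrb, the beta subunit that anchors the receptor to gephyrin, held 3 footprints, Glra3 held 1 and neither was footprinted in a naïve mouse.

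Only some sites recurred between mice. Merged over the 10 mice, the footprints formed 589 regions, of which 433 (73.5%) were touched in 1 mouse. This applied to 82.3% of the 424 intronic regions and 48.3% of the 143 coding ones. Of the 73 regions touched in 3 or more mice, 51 were coding and 21 intronic. Regions seen only in naïve mice numbered 276, of which 240 were intronic, and those seen only in EAE mice 208, of which 135 were intronic and 64 coding.

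By the study's criterion for a high-quality footprint, an overlap above 1 nt between 2 or more mice of the group, the naïve mice shared 61 stretches in 19 receptor genes and the mild EAE mice 36 in 12 genes. The naïve stretches were intronic in 59% and coding in 37.7%, and the mild EAE stretches in 27.8% and 69.4%. Over all genes the intronic part was 25% of 7291 stretches in naïve and 11.1% of 8682 in mild EAE mice. Of the naïve stretches in receptor genes 24 were touched in no EAE mouse, 21 of them intronic, and of the mild EAE stretches 17 were touched in no naïve mouse, 11 of them coding. The counts depended on each mouse. The naïve count was 13 without mouse 1, 43 without mouse 2 and 15 without mouse 3, and the mild EAE count 18, 15 and 13 without mice 3, 4 and 7. Severe EAE mice shared 3 stretches, 2 in Grin1 and 1 in Gabbr1, all between mice 1 and 5.

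The alternative exons of these genes were then examined, since hnRNP A1 is a splicing repressor. Among 31 internal coding exons that lie within an intron of another annotated transcript, 7 carried a footprint in at least 1 mouse and 3 in more than 1 mouse. The 63-nt cassette exon of the amino-terminal domain of Grin1 was covered over its whole length in mild EAE mice 3 and 7 and in no other mouse. An exon of 135 nt of Gabbr1 at chr17:37054131-37054265 was covered over 105 nt in naïve mouse 1 and entirely in mild EAE mouse 3 and severe EAE mouse 5. The 111-nt cassette exon of Grin1 that encodes part of the intracellular tail, a textbook target of hnRNP A1 through UAGG, had no footprint in any mouse. Both Grin1 exons are shown, the first for its presence in mild EAE mice alone and the second for its TAGG.
Grin1 63-nt exon, chr2:25311343-25311405, minus strand: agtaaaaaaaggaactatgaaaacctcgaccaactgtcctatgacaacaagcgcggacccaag
Grin1 111-nt exon, chr2:25294438-25294548, minus strand: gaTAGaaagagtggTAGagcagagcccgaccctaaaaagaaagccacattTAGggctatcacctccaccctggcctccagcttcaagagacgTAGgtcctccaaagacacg

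The 63-nt exon holds no TAG, whereas the 111-nt exon holds 4, of which 2 are followed by G. The absence of a footprint there says only that none was retained after subtraction of the input and the control antibody. Of the 8 flip and flop exons of the AMPA subunits, each 115 nt long, 3 were footprinted. One of Gria2 (chr3:80690404-80690518) was covered over 71 nt in naïve mouse 2, 115 nt in mild EAE mouse 7 and 89 nt in severe EAE mouse 5. One of Gria1 was covered over 88 nt in naïve mouse 1 and one of Gria4 over 89 nt in severe EAE mouse 5. The remaining exons with a footprint were one of Glra1, covered over 91 nt in severe EAE mouse 5, and one of Glrb, covered over 81 nt in mild EAE mouse 7.

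TAG was counted on the strand of the gene in footprints that overlap a single gene, and its density was divided by that in flanking windows as long as the footprint, placed 200 nt upstream and downstream. Over all receptor footprints the log2 ratio of the densities was 0.14, -0.25 and 0.51 in naïve mice 1, 2 and 3. Mild EAE mice 3, 4 and 7 had -0.69, 0.49 and 0.34. The ratio was -0.69 in severe EAE mouse 1 and 0.08 in mouse 5. The means of 0.13 ± 0.38 (n = 3) in naïve and -0.09 ± 0.56 (n = 5) in EAE mice differed by less than the spread between mice. In intronic footprints alone the ratio was 0.32 ± 0.50 in naïve and 0.46 ± 0.36 in EAE mice. Across all genes, intronic footprints gave 0.47 ± 0.48 (n = 3) and 0.77 ± 0.25 (n = 7). By a motif search, a different measure, the paper reports stronger representation of AGGU (AGGT in the DNA) in EAE. For AGGT the ratio over all receptor footprints was -0.10 ± 0.35 in naïve and -0.01 ± 0.32 in EAE mice. In intronic receptor footprints it was -0.03 ± 0.37 and 0.59 ± 0.33. Single mice overlapped, with severe EAE mouse 5 at 0.18 and naïve mouse 3 at 0.35. Severe EAE mouse 1 (1.00) rested on 310 nt. Across all genes, the AGGT ratio of intronic footprints was 0.36 ± 0.43 (n = 3) in naïve and 0.55 ± 0.26 (n = 7) in EAE mice. AGGT was held by 38.4%, 43.8% and 37.9% of intronic receptor footprints in naïve, mild EAE and severe EAE mice. The flanking windows held it in 43.5%, 38.6% and 35.3%.

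TAG is so frequent that most windows of this length hold it. Of intronic receptor footprints 81.9% in naïve, 92.4% in mild EAE and 95.8% in severe EAE mice held at least 1 TAG, against 85.4%, 84.8% and 85.3% of the flanking windows. TAGG, which overlaps TAG, was held by 41.3%, 49.5% and 52.6% of the intronic footprints against 37.1%, 33.8% and 38.4% of the flanks. Over the intronic footprints of all genes 81.6%, 85.4% and 87.5% held TAG, and 41.1%, 46.9% and 46.8% held TAGG. Repeat-masked bases made up 40.8%, 45.5% and 39.5% of the intronic receptor footprints, against 29.6% of the introns of the 40 genes. Over the intronic footprints of all genes they made up more, at 43.6%, 49.4% and 41.6%.

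The partners of the receptors gave the following counts. Among the auxiliary subunits of AMPA and kainate receptors 11 of 13 genes were footprinted and 4 entered the tests, and none was lower in every mild EAE mouse than in every naïve mouse (median difference -107 nt). Of the postsynaptic scaffold genes 20 of 21 were footprinted and 14 tested, 2 were lower in this sense and the median was -120 nt. Of the genes for transmitter synthesis and transport 15 of 17 were footprinted and 11 tested, 1 was lower and the median was -10 nt. No gene of the 3 lists was higher. The percentage of all genes with lower coverage in this comparison was 5.26%, as above.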

How the data were processed

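HnRNP A1 immunoprecipitations from the spinal cords of 10 mice were used, 3 naïve, 3 mild EAE (clinical score under 2.5) and 4 severe EAE mice, 1 library each. The authors used bcl2fastq and fastp on the reads, built contigs from each library with rnaSPAdes and placed the contigs on GRCm38 by spliced alignment (minimap2 2.17). Sites of the matched input and pooled control antibody were then taken out with bedtools and overlaps merged without strand. The deposited files hold genome positions only, 209 to 31870 footprints per mouse, so the depth behind a footprint is unknown and the list length limits what a mouse can show. An RNA must be covered well enough to assemble in order to leave a footprint. Inputs and control antibody libraries were not analysed here.

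Footprints were intersected with GENCODE release M21, and the genome sequence was the RefSeq copy of GRCm38, whose 21 chromosomes matched by name and length. Covered nucleotides per gene were compared over all 6731 genes footprinted in at least 3 mice by a two-sided exact permutation test over mice with Benjamini-Hochberg adjustment, which measures the spread between mice. The genes and lists were chosen with earlier results of these data known. Values summed over the receptor genes have no test. Named with values are the 12 genes with the most footprints, the leading gene of each class, those with shared stretches, those whose groups did not overlap and those without a footprint. Grin3a intronic values, Grik5 intronic values and counts for the remaining genes were added after they were seen. The permutation and the stretch search were tested on simulated data. Alternatives were limits of 30 and 1000 nt on footprint length, values per covered nt or per mapped read, footprints in place of nucleotides, a log2 scale, midpoint assignment, wider spans, coding transcripts, stretches of 20 nt, the short lists or single mice left out, a replicate block, and, added later, nucleotides inside and outside exons. Python 3.11.15, numpy 2.4.6, scipy 1.17.1, pysam 0.24.0, samtools 1.23.1 and matplotlib 3.10.9 were used.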

Additional observations from a re-analysis of the deposited data

Results flagged for a closer look

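In the severe EAE group, mouse 5 stood far from the other 3 mice in 30 of the 32 receptor quantities that varied, by the gap to its nearest neighbour relative to the range of the group. The limit used for this gap is met by about 5% of groups of normally distributed values. Severe EAE mice 1, 2 and 6 had 7, 0 and 0 receptor footprints, so every gene footprinted in mouse 5 alone met it. The quantities are also not independent, so the count of 30 is no test against chance. Its list is also the longest of all, at 31870 footprints against 209, 673 and 2670. The mouse had 190 receptor footprints in 26 receptor genes, over 25738 covered nt, 94 of them intronic and 96 exonic. Among AMPA genes it covered 1025 nt of Gria1, 646 of Gria2, 192 of Gria3 and 4077 of Gria4. Among NMDA genes it covered 2015 nt of Grin1, 932 of Grin2a, 298 of Grin2b, 311 of Grin2d and 143 of Grin3a. Kainate and delta genes covered 138 nt in Grik1, 1409 in Grik2, 296 in Grik4, 405 in Grik5 and 742 in Grid1. Metabotropic genes covered 676 nt in Grm3, 2436 in Grm5, 3109 in Grm7 and 118 in Grm8. Inhibitory receptor genes covered 333 nt in Gabra2, 140 in Gabra5, 838 in Gabrb1, 303 in Gabrg3, 1138 in Gabbr2, 1941 in Glra1 and 160 in Glrb. The mean and SD of the severe EAE group therefore describe 1 long and 3 short lists, and the part of list length in these values was not tested. No quantity had every mild EAE mouse on one side of the naïve mean and every severe EAE mouse on the other. With severe EAE mice 2 and 6 at 0 footprints, the severe group was never wholly above that mean. Group means of covered nt did lie on opposite sides in some genes. Among them, Grin2a had 398 nt in naïve, 555 in mild EAE and 233 in severe EAE mice. Grik3 had 480, 564 and 0 nt and Gabbr1 877, 895 and 569 nt in the same order.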

How the results depend on the processing

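The receptor share of footprints, the intronic share and the number of receptor genes footprinted kept a lower mean in EAE under 6 of 6 alternatives each. With each mouse left out in turn, the EAE minus naïve difference in receptor share ranged from -0.682 to -0.498 percentage points, that in intronic share from -34.3 to -23.2 and that in genes from -15.2 to -10.7. Without the 3 mice with fewer than 5000 footprints the difference in genes shrank from -12.8 to -4.08. The difference in the log2 density of UAG, -0.224 with all mice, ranged from -0.416 to -0.0352, and was 0.143 in intronic footprints alone, a move smaller than the spread between mice. Counts of receptor genes that did not overlap between groups depended on the scale, and the percentage of all genes tested, given in parentheses for either direction together, moved as well. For all EAE mice the count of 1 (2.01%) became 3 by share of all covered nt (3.42%), 8 scaled to mapped reads (8.42%), 0 by footprints (1.23%), 4 outside exons (2.39%) and 0 inside exons (0.505%), and 1 to 5 with a mouse left out (2.01% to 5.2%). For mild EAE the count of 5 (10.5%) became 3 by share (13.5%), 10 by mapped reads (14.7%), 9 outside exons (6.55%) and 0 inside exons (6.27%), with 6 to 15 when a mouse was left out (16% to 23.6%). For severe EAE the count of 3 (4.74%) became 11 by share (10%), 14 by mapped reads (15.5%), 1 by footprints (3.76%), 6 outside exons (4.29%) and 0 inside exons (2.08%), and 3 to 21 with a mouse left out (4.86% to 30.8%). Shared stretches numbered 13 to 43 in naïve, 13 to 18 in mild EAE and 0 to 3 in severe EAE mice with 1 mouse left out, and 0 in severe EAE when 3 mice were required.

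With a replicate block, taking differences between mice of the same number, 18 of 26 genes were lower in every pair, against 23.6% of all genes on one side in every pair, the UAG difference was -1.01 over 2 pairs, the share difference -0.731 and the difference in genes -19. The numbers only name the mice, since deviations of same-numbered mice correlated at 0.00197, 0.0365 and -0.0092. Severe EAE mice 1 and 2 stood in 2 of the pairs with 7 and 0 receptor footprints. A lower value in those pairs was therefore nearly fixed in advance, and the paired counts decide nothing. Footprint lists carry no depth, and 3 of 10 lists hold fewer than 5000 footprints. The cause of these shifts was not tested.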
